A study of Mus musculus with 4 samples.

Results

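The D cyclins (Ccnd1, Ccnd2, Ccnd3), the kinases of G1 phase (Cdk2, Cdk4, Cdk6), the pocket proteins (Rb1, Rbl1, Rbl2) and Myc were followed in mouse neural progenitor cells depleted of Rybp. The 10 genes were picked by symbol, for their roles at the point in G1 where a cell commits to division, and all 10 were found among the 13881 genes of the count table. The cells came from the forebrain of C57BL/6 embryos at embryonic day 14 and were expanded as proliferating cultures in medium with 2% B27, 20 ng/ml EGF and 20 ng/ml FGF-2. In the shRybp group (2 libraries) a lentivirus delivered a short hairpin RNA against Rybp, a subunit of variant forms of Polycomb repressive complex 1, and in the control group (2 libraries) the label is ctrl, with the control construct not given in the sources used here. Both groups are cultured cells of the same strain, stage and medium. The labels name no separate cultures, animals or infections behind the replicate numbers, so the p-values reflect how far these libraries spread, and that spread may be technical.

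D cyclins are the link between mitogens and the cell cycle. They are short-lived proteins that bind Cdk4 or Cdk6, and these complexes begin to phosphorylate the pocket proteins, which otherwise hold E2F transcription factors inactive. Cdk2 with cyclin E completes that phosphorylation, E2F then drives the genes of DNA replication, and Myc acts upstream by raising the transcription of growth genes. In forebrain progenitors cyclin D1 and cyclin D2 are the main D cyclins, and the length of G1 is known to bear on whether a progenitor divides again or differentiates.

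Depth was 14355308 and 16400480 counts in shRybp 1 and 2, against 17598873 and 15938646 in control 1 and 2. Of 12062 genes tested with edgeR's quasi-likelihood test, those with a mean of at least 1 FPKM (reads per gene, scaled by gene length and library size) over the 4 libraries, 16.3% rose and 16.7% fell at an adjusted p of 0.05, together 33.0%. Without shRybp replicate 2 the genes that rose numbered 1296, against 1970 with all 4 libraries. The targeted gene was reduced but far from absent: Rybp had 3.01 and 2.66 FPKM in shRybp libraries, against 4.43 and 3.95 FPKM in control libraries, which is 65.8% of control (log2 fold change -0.60, SE 0.12, edgeR adjusted p = 0.0017). Among markers of neural progenitors, Nes, Sox2, Vim, Fabp7, Pax6, Hes5 and Msi1 were all in the table, and 2 rose and 4 fell. All 8 tested astrocyte markers fell, with 9 markers summing to 239.8 and 259.8 FPKM in shRybp libraries, against 603 and 616 FPKM in control libraries. Of 6 oligodendrocyte precursor markers 3 fell, and the 6 summed to 719 and 772 FPKM in shRybp libraries, against 797 and 811 FPKM in control libraries. Olig1 and Olig2, which did not pass, made up most of that sum. The 3 that fell were Gpr17 (log2 fold change -2.51), Sox10 (-1.99) and Pdgfra (-1.26). Of 4 neuron markers tested 2 fell, and the 5 of 8 found in the table summed to 67.8 and 61.4 FPKM in shRybp libraries, against 70.4 and 70.2 FPKM in control libraries. Map2, which did not pass, made up most of the neuron sum, and the 2 that fell were Dcx (log2 fold change -1.22) and Snap25 (-0.46). Of 7 microglial and 6 endothelial or mural markers 2 each were in the table, and each set summed to less than 1 FPKM in every library. In bulk RNA, fewer cells of a type and less RNA per cell cannot be told apart, and the part of these glial markers in the values below was not tested.

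Of the 10 genes, 5 rose in shRybp cells (Ccnd1, Rbl1, Cdk2, Ccnd3 and Myc), 1 fell (Rb1) and 4 did not pass the test (Cdk4, Rbl2, Cdk6 and Ccnd2). Without control replicate 1, and likewise without shRybp replicate 2, 3 genes rose, since Ccnd3 and Myc lost their calls. The median log2 fold change of the 10 was 0.15, beside 0.003 over all genes tested. The groups were free of overlap in FPKM for 9 of the 10 genes, as they were for 67.5% of all genes tested. Ccnd2 is among the 9 with a gap of only 0.01 on the log2 scale. Only Ccnd1 changed by more than 1.5-fold. In each library Ccnd1 had the highest FPKM of the 10 genes and Cdk6 the lowest.

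**Figure D1:**
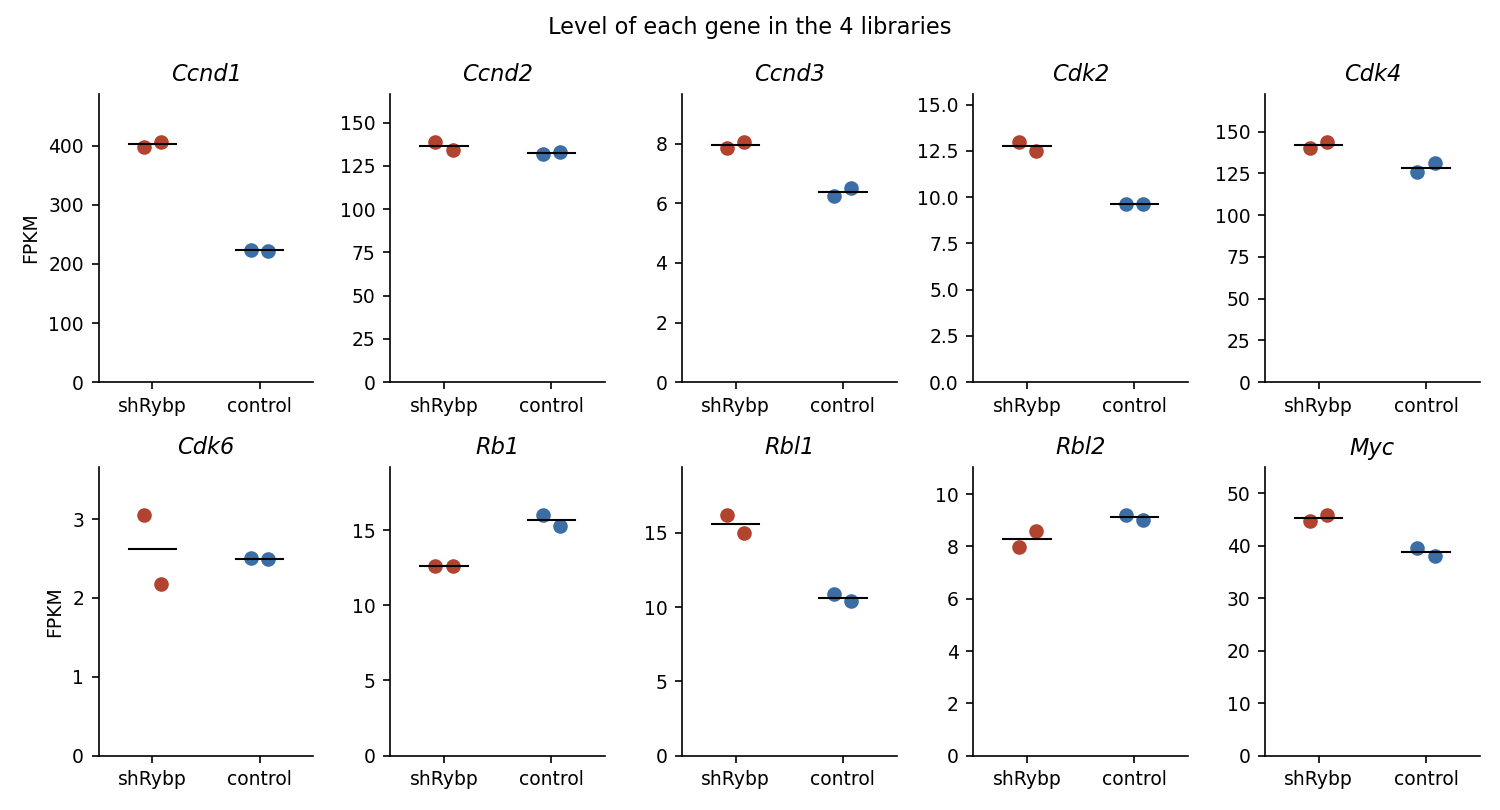
FPKM of each of the 10 genes (y axis, linear from 0, a scale of its own in each panel) in the 2 shRybp libraries and the 2 control libraries (points), with the mean of each group as a line. Ccnd1 stands at 398 and 407 FPKM in shRybp libraries, against 224 and 222 FPKM in control libraries, while the shRybp values of Cdk6 lie on both sides of its control values.

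**Figure D2:**
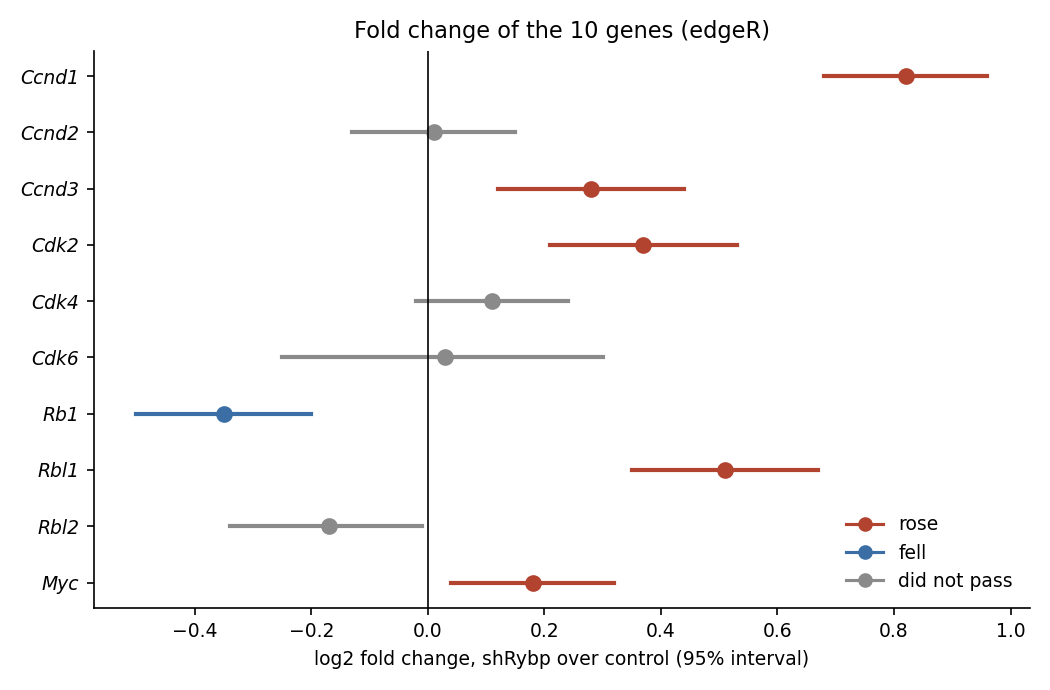
Log2 fold change of shRybp over control (x axis) with the 95% interval of the edgeR fit for each of the 10 genes, coloured by the call. Ccnd1 lies farthest from 0 at 0.82, Rb1 is the gene that fell at -0.35, and the intervals of Ccnd2, Cdk4 and Cdk6 hold 0.

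Among the D cyclins the rise was mostly that of Ccnd1. Cyclin D1 (ENSMUSG00000070348, chr7:144929931-144939925 on mm10, minus strand) had 398 and 407 FPKM in shRybp libraries, against 224 and 222 FPKM in control libraries, from 26960 and 31505 counts against 18567 and 16663. Both shRybp libraries lay far above both control libraries, and the gap between the groups was 0.83 on the log2 scale of FPKM, where replicates of 1 group differed by 0.03 and 0.01. The fold change was 1.76 (log2 fold change 0.82, SE 0.07, 95% interval 0.68 to 0.96, edgeR adjusted p = 2.3e-06). Ranked by mean FPKM among 12062 genes, Ccnd1 stood at place 57 in shRybp and at place 116 in control, and by log2 fold change it was the gene at place 142. Exons of the gene annotated as LTO1 on the opposite strand share 1100 bases with those of Ccnd1. That gene held 201 and 276 counts in shRybp libraries, against 297 and 242 counts in control libraries.

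Cyclin D2 (Ccnd2, ENSMUSG00000000184, chr6:127125162-127152193, minus strand) stayed close to its control level. It had 139 and 134 FPKM in shRybp libraries, against 132 and 133 FPKM in control libraries, values that lie side by side. The log2 fold change was 0.01 with a 95% interval of -0.13 to 0.15 (SE 0.06, edgeR adjusted p = 0.94), which leaves room for a change of about that size in either direction. Cyclin D3 (Ccnd3, ENSMUSG00000034165, chr17:47505051-47599691, plus strand) was far less abundant, at 7.84 and 8.07 FPKM in shRybp libraries, against 6.23 and 6.53 FPKM in control libraries. Its groups did not overlap and it rose (log2 fold change 0.28, SE 0.07, 95% interval 0.12 to 0.44, edgeR adjusted p = 0.011). That call was lost without control replicate 1 (log2 fold change 0.25, edgeR adjusted p = 0.059) and without shRybp replicate 2 (log2 fold change 0.26, edgeR adjusted p = 0.076). Bysl, a ribosome biogenesis gene on the opposite strand that shares 361 exonic bases with Ccnd3, rose in the same libraries (log2 fold change 0.44, edgeR adjusted p = 0.0013). Whether the libraries kept strand was not given in the sources used here, so reads from the shared bases of Ccnd3 and Bysl cannot be told apart.

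Taken as a pool, D cyclin transcripts summed to 545 and 549.6 FPKM in shRybp libraries, against 362 and 361 FPKM in control libraries. Ccnd1 made up 73.0% and 74.1% of this sum in shRybp libraries, against 61.7% and 61.3% in control libraries. The share of Ccnd2 was 25.5% and 24.4% in shRybp libraries, against 36.5% and 36.9% in control libraries, although its own level hardly differed. Ccnd3 contributed under 2% in every library. These shares rest on the gene lengths behind FPKM, 4718 bases for Ccnd1 and 9426 for Ccnd2. In control libraries Ccnd2 had more counts, 21949 and 20012, against 18567 and 16663 for Ccnd1. In shRybp libraries it had fewer, 18839 and 20768, against 26960 and 31505 for Ccnd1. The FPKM ratio of Ccnd1 to Ccnd2 was 2.86 and 3.03 in shRybp libraries, against 1.69 and 1.66 in control libraries, so the groups lay apart by much more than the replicates did. With 2 libraries against 2, an exact permutation test of such a ratio cannot give a two-sided p below 0.33, and none was run.

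**Figure D3:**
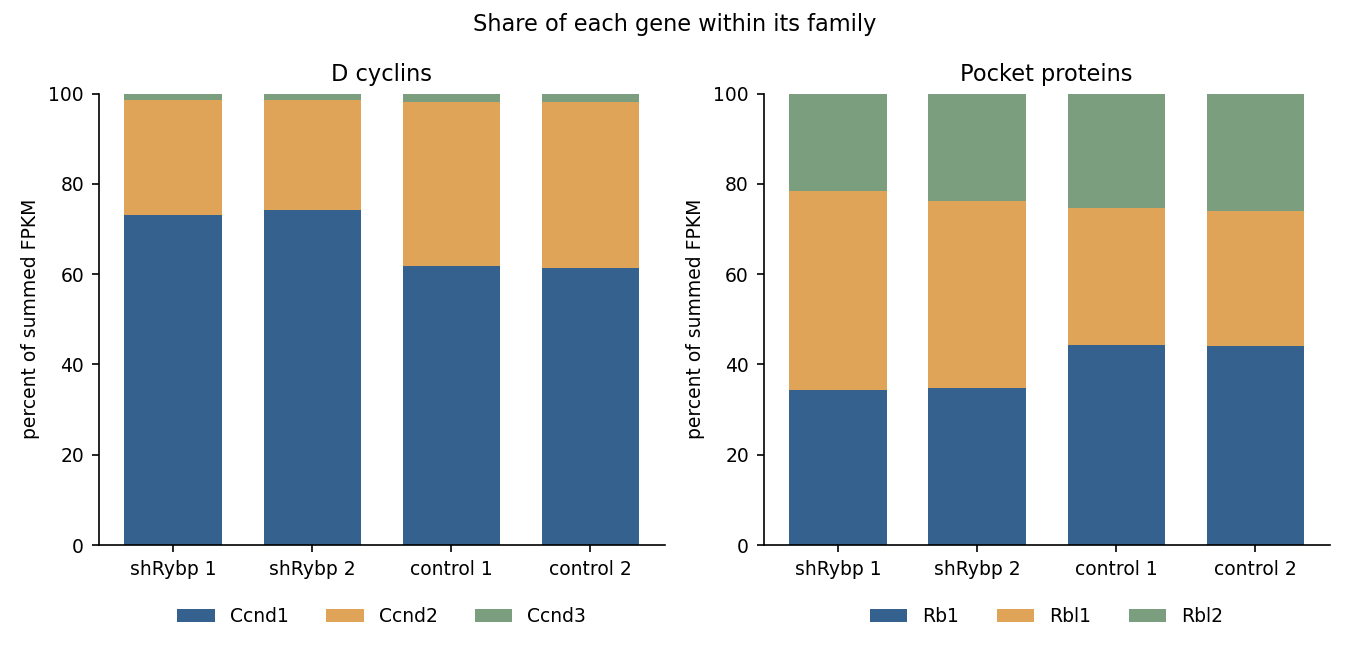
Share of each gene in the summed FPKM of its family (y axis, percent) in each of the 4 libraries, for D cyclins (left) and pocket proteins (right). The Ccnd1 share is 73.0% and 74.1% in shRybp libraries, against 61.7% and 61.3% in control libraries, and the Rbl1 share is 44.0% and 41.6% against 30.3% and 29.9%.

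The kinase partners of the D cyclins differed little between the groups. Cdk4 (ENSMUSG00000006728, chr10:127063534-127067920, plus strand), the main partner in these cells by transcript level, had 139.9 and 144 FPKM in shRybp libraries, against 126 and 131 FPKM in control libraries. Both shRybp values were the higher ones, but the difference was not past the threshold (log2 fold change 0.11, SE 0.06, 95% interval -0.02 to 0.24, edgeR adjusted p = 0.2). Tspan31, a membrane protein gene on the opposite strand that shares 641 exonic bases with Cdk4, did not pass either (log2 fold change 0.06, edgeR adjusted p = 0.52).

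Cdk6 (ENSMUSG00000040274, chr5:3341485-3531008, plus strand) had a far lower FPKM than its paralogue, at 3.05 and 2.18 FPKM in shRybp libraries, against 2.50 and 2.49 FPKM in control libraries. The shRybp values lay above and below the controls and differed by 0.48 on the log2 scale, where 95% of all tested genes differed by at most 0.41 between these libraries. The log2 fold change of 0.03 (SE 0.13, 95% interval -0.25 to 0.30, edgeR adjusted p = 0.89) had the widest interval of the 10 genes, and its sign turned without shRybp replicate 1 (-0.23, edgeR adjusted p = 0.14). Cdk4 supplied 97.9% and 98.5% of the summed FPKM of Cdk4 and Cdk6 in shRybp libraries, against 98.1% in both control libraries. The size of that share rests on the gene lengths behind FPKM, 3255 bases for Cdk4 and 14015 for Cdk6. Cdk4 had 6536 and 7684 counts in shRybp libraries, and 7210 and 6811 in control libraries. Cdk6 had 613 and 502 counts in shRybp libraries, and 616 and 557 in control libraries. The summed D cyclins were 3.81 and 3.76 times the summed Cdk4 and Cdk6 in shRybp libraries, against 2.82 and 2.70 times in control libraries, both in FPKM.

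Cdk2 (ENSMUSG00000025358, chr10:128697939-128705031, minus strand), which acts with cyclins E and A at the start of S phase, rose. It had 13.0 and 12.5 FPKM in shRybp libraries, against 9.63 and 9.64 FPKM in control libraries. The groups were clearly apart and the fold change was 1.29 (log2 fold change 0.37, SE 0.07, 95% interval 0.21 to 0.53, edgeR adjusted p = 0.0018). The exons of Cdk2 share 34 bases with the pigment cell gene Pmel on the opposite strand, which was not analysed here.

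The pocket proteins moved in different directions. The retinoblastoma gene Rb1 (ENSMUSG00000022105, chr14:73183673-73325822, minus strand), whose protein mainly binds the activating E2F factors, had 12.6 FPKM in both shRybp libraries, against 16.0 and 15.3 FPKM in control libraries. The groups did not overlap and Rb1 fell to 78.4% of control (log2 fold change -0.35, SE 0.07, 95% interval -0.50 to -0.20, edgeR adjusted p = 0.0019). Opposite-strand genes share exonic bases with Rb1: Rcbtb2 shares 488 and also fell (log2 fold change -0.30, edgeR adjusted p = 0.011), and the receptor gene Lpar6 shares 408 and did not pass (log2 fold change -0.04, edgeR adjusted p = 0.82). Reads from the bases that Rb1 shares with them cannot be told apart.

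Rbl1 (ENSMUSG00000027641, chr2:157145893-157204534, minus strand) encodes p107, a pocket protein that binds the repressive E2F factors and whose own gene is a known E2F target. It had 16.2 and 15.0 FPKM in shRybp libraries, against 10.9 and 10.4 FPKM in control libraries, with a gap of 0.46 on the log2 scale between the groups. Rbl1 rose by a fold of 1.43 (log2 fold change 0.51, SE 0.07, 95% interval 0.35 to 0.67, edgeR adjusted p = 2.3e-04), the second largest change of the 10 genes.

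Rbl2 (ENSMUSG00000031666, chr8:91070057-91123844, plus strand) encodes p130, the pocket protein best known from resting cells. It had 7.99 and 8.58 FPKM in shRybp libraries, against 9.20 and 9.03 FPKM in control libraries. The shRybp values were both lower, but the change was not past the threshold (log2 fold change -0.17, SE 0.07, 95% interval -0.34 to -0.01, edgeR adjusted p = 0.094). Aktip, which shares 693 exonic bases with Rbl2 on the opposite strand, fell (log2 fold change -0.46, edgeR adjusted p = 0.0014), and reads from the shared bases cannot be told apart. Gm45464, also on the opposite strand, shares 892 exonic bases with Rbl2 and was not analysed here.

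The pool of pocket protein transcripts kept about the same size while its make-up differed. The 3 genes summed to 36.8 and 36.2 FPKM in shRybp libraries, against 36.1 and 34.7 FPKM in control libraries. Rbl1 was the most abundant of them in both shRybp libraries and Rb1 in both control libraries. The FPKM ratio of Rbl1 to Rb1 was 1.28 and 1.20 in shRybp libraries, against 0.683 and 0.678 in control libraries. The share of Rb1 in the pool was 34.3% and 34.7% in shRybp libraries, against 44.3% and 44.1% in control libraries, and that of Rbl2 was 21.7% and 23.7% against 25.5% and 26.0%. The FPKM ratio of the summed D cyclins to the summed pocket proteins was 15.0 ± 0.267 in shRybp libraries and 10.2 ± 0.268 in control libraries (SD, n = 2 each).

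Promoter windows (250 bases before to 50 after the start, from RefSeq on GRCm38.p6, the assembly behind mm10) were at hand for 6 of the 10 genes, Ccnd3, Cdk2, Cdk4, Cdk6, Rbl1 and Rbl2. Ccnd1, Ccnd2, Rb1 and Myc had no entry. The windows of the paralogues Rbl1, which rose, and Rbl2, which did not pass, and of the kinases Cdk2, which rose, and Cdk4, which did not pass, are shown 5′ to 3′ on the gene's strand, with E2F sites and E-boxes in capitals.
Rbl1, chr2:157204485-157204784, minus strand: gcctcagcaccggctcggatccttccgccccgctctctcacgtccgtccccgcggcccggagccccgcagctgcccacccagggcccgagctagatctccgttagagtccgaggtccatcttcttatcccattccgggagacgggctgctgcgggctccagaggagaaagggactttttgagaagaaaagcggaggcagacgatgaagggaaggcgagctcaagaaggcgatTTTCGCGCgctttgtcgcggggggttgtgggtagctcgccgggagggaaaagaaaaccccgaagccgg
Rbl2, chr8:91069807-91070106, plus strand: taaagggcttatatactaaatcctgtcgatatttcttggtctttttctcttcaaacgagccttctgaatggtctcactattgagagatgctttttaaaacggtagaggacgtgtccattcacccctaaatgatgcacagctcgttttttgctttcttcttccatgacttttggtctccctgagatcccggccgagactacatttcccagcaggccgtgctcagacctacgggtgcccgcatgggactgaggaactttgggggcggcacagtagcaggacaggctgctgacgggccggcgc
Cdk2, chr10:128705002-128705301, minus strand: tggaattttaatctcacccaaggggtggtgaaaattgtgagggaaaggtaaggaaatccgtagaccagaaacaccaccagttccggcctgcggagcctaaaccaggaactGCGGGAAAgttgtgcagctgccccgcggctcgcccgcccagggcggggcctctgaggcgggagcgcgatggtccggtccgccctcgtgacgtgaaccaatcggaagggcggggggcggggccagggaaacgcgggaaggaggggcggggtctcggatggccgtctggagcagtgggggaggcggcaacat
Cdk4, chr10:127063285-127063584, plus strand: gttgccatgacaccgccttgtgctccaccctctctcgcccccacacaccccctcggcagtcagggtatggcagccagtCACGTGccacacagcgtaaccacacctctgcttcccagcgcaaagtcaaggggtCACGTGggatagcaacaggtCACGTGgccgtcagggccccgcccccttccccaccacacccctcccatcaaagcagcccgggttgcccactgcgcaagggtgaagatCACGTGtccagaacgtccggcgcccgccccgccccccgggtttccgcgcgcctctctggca

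Each motif was searched by its letters on both strands. The E2F sites searched were TTTCGCGC, TTTGGCGC and TTTCCCGC, of which at least 1 is found in 1.84% of the 32851 promoter windows searched. These are the windows of 300 bases, with chromosome 18 left out. The window of Rbl1, which rose, holds TTTCGCGC starting 18 bases before the start, a form found in 0.323% of windows. The window of Cdk2, which rose, holds TTTCCCGC on the other strand (GCGGGAAA) from base -140, a form found in 1.07% of windows. No E2F site of these letters lies in the 2 windows of Ccnd3, which also rose. None lies in those of Rbl2, Cdk4 and Cdk6, which did not pass. The E-box CACGTG, which Myc and Max bind, is found in 7.15% of windows. It occurs at 4 places in the window of Cdk4, starting at bases -172, -118, -98 and -11, and at 1 place, base -220, in that of Cdk6. Some of these motifs are more frequent in GC-rich sequence, and the windows of Rbl1, Cdk2 and Cdk4 have 64.0%, 64.7% and 67.0% GC, beside a median of 52.7% over all windows and 50.7% for Rbl2. Letters that match a motif do not show binding in these cells. Matches of the other motifs searched were spread over the windows: the core TGACG of the cAMP response element (20.8% of all windows) stood in those of 5 of the 6 genes, all but Rbl1, and the GC box GGGCGG (35.7%) in all but Cdk6. The N-box CACNAG of Hes repressors (42.5%) stood in those of Ccnd3, Cdk2 and Cdk4. The CHR element TTTGAA (17.9%) stood in that of Rbl2 alone and the TATA box TATAAA (13.6%) in that of Cdk6 alone. The RBPJ site GTGGGAA (6.38%) was in none of the 6.

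Myc (ENSMUSG00000022346, chr15:61985391-61990374, plus strand), the growth-promoting factor that mitogens induce in G1, rose by a small amount. It had 44.7 and 45.8 FPKM in shRybp libraries, against 39.6 and 38.1 FPKM in control libraries. The groups did not overlap, and the log2 fold change was 0.18 (SE 0.06, 95% interval 0.04 to 0.32, edgeR adjusted p = 0.043). The call was lost when any 1 of the 4 libraries was left out (edgeR adjusted p between 0.063 without control replicate 1 and 0.23 without control replicate 2) and in DESeq2 (adjusted p = 0.12).

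The wider pathway was described with 10 lists that share no gene, 131 genes tested in all. Of these 65 rose and 14 fell (8 without shRybp replicate 2), 49.6% and 10.7%, beside 16.3% and 16.7% of all genes tested, and their median log2 fold change was 0.22. The number that rose was also lower without control replicate 2 or either shRybp replicate, and slightly higher without control replicate 1. With all 4 libraries, most of the rises were in the lists of E2F targets (27 of 30, 90.0%) and Myc targets (18 of 27, 66.7%). The pooled share therefore does not describe each list. In the remaining lists the share that rose ran from 0% (CDK-activating kinase, 3 genes) to 80.0% (cyclins E and A with their kinase partners, 5 genes). The lists were chosen with earlier results of these data known, and no list was tested as a set.

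**Figure D4:**
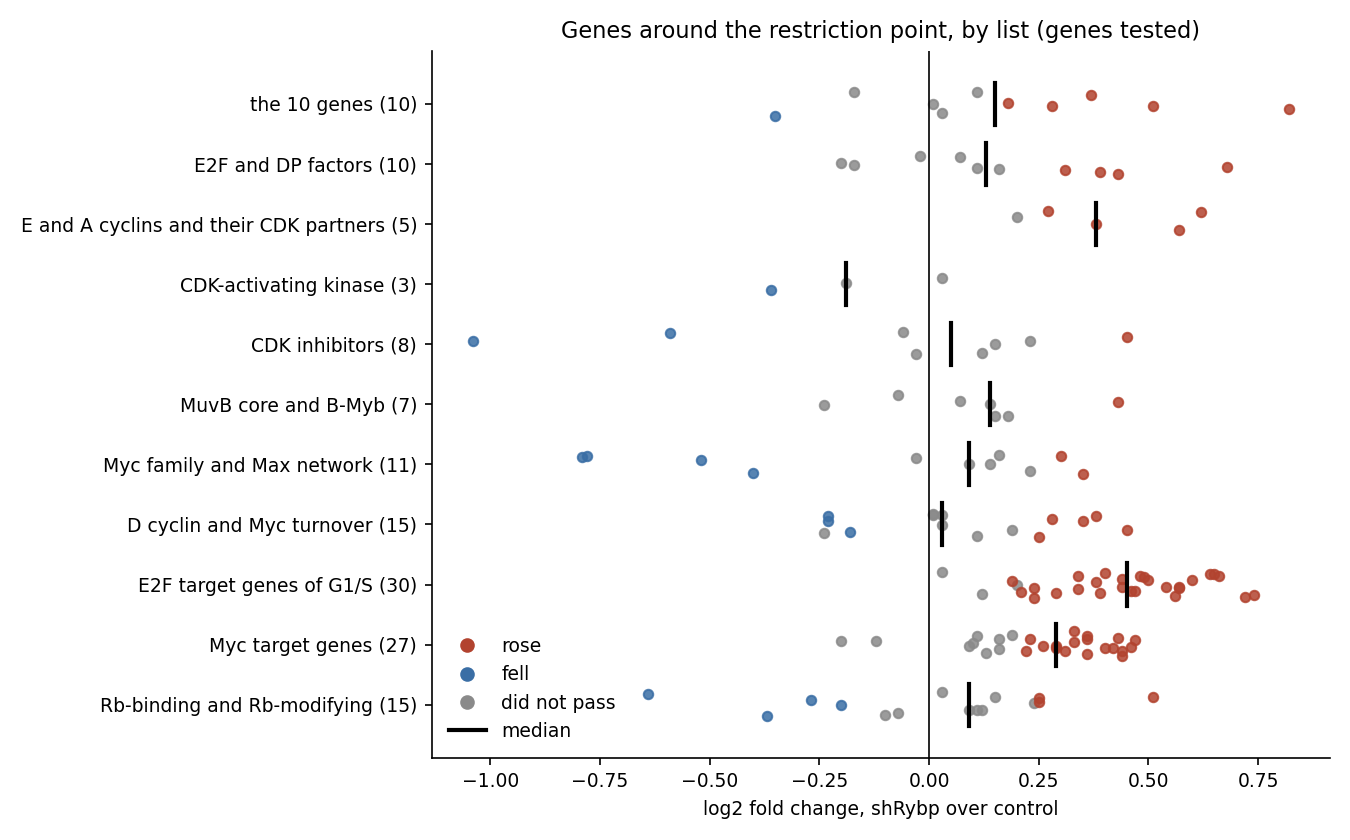
Log2 fold change of shRybp over control (x axis) for each gene tested in the 10 genes and in 10 lists of the wider pathway, coloured by the call, with the median of each list as a bar and the number of genes tested in brackets; vertical scatter only separates the points. The E2F target genes lie furthest to the right as a list, with 27 of 30 that rose, while the Myc family and Max network and the CDK inhibitors hold genes on both sides.

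Of 10 E2F and DP genes 4 rose and 0 fell in edgeR, DESeq2 and limma (2 fell at an unadjusted p below 0.05 in edgeR). The share that rose was 40.0%, beside 16.3% of all genes tested. The activator gene E2f2 had 6.11 and 7.11 FPKM in shRybp libraries, against 3.78 and 4.28 FPKM in control libraries, and rose by 0.68 on the log2 scale (SE 0.10, edgeR adjusted p = 2.8e-04). E2f1, also an activator, had 9.63 and 9.49 FPKM in shRybp libraries, against 6.74 and 7.13 FPKM in control libraries, and rose by 0.43 (SE 0.09, edgeR adjusted p = 0.0022). E2f3, the remaining activator, did not pass, at 11.5 FPKM in both shRybp libraries, against 10.5 and 11.0 FPKM in control libraries (log2 fold change 0.07, edgeR adjusted p = 0.53). The others that rose were E2f4 (log2 fold change 0.39), a partner of p107 and p130, and the atypical repressor gene E2f8 (0.31). Tfdp1, the most abundant dimer partner, had a log2 fold change of 0.16 (edgeR adjusted p = 0.08). Only 2 of the 10 rose without shRybp replicate 2, where E2f4 and E2f8 lost their calls; E2f4 also lost it without control replicate 1 and E2f8 without control replicate 2.

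Cyclins of the next step followed the same direction. Of the 5 genes tested in the list of cyclins E and A with their kinase partners, 4 rose and 0 fell in edgeR, DESeq2 and limma, and 0 fell at an unadjusted p below 0.05 in edgeR. Ccne1, which encodes cyclin E1, the partner of Cdk2, had 15.1 and 15.4 FPKM in shRybp libraries, against 10.4 and 9.62 FPKM in control libraries (log2 fold change 0.57, SE 0.09, edgeR adjusted p = 3.6e-04). Cdc25a, a phosphatase gene that relieves inhibition of Cdk2, rose by 0.62 (edgeR adjusted p = 1.6e-04), and the others were Ccna2 (0.38) and Cdk1 (0.27). Ccne2 differed between replicates as much as between groups, at 14.7 and 12.1 FPKM in shRybp libraries, against 12.7 and 10.1 FPKM in control libraries (log2 fold change 0.20, edgeR adjusted p = 0.24). The kinase complex that activates all of these kinases had 1 call, lost in DESeq2 and limma, where 0 of its 3 genes fell: Mnat1 fell in edgeR (log2 fold change -0.36, adjusted p = 0.029). That 1 call is 33.3% of the list, beside 16.7% of all genes tested that fell. Ccnh (-0.19, edgeR adjusted p = 0.14) and Cdk7 (0.03) did not pass. The call of Mnat1 was also lost without control replicate 1 (-0.20, edgeR adjusted p = 0.28), without shRybp replicate 1 (adjusted p = 0.07) and without shRybp replicate 2 (adjusted p = 0.11), while without control replicate 2 Ccnh fell too (-0.29, edgeR adjusted p = 0.045).

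Of 30 E2F target genes of the G1/S transition, 27 rose and 0 fell in edgeR, with a median log2 fold change of 0.45 (25 and 0 in DESeq2, 26 and 0 in limma, and 28 and 0 at an unadjusted p below 0.05 in edgeR). Uhrf1, which maintains DNA methylation after replication, had 74.6 and 79.9 FPKM in shRybp libraries, against 45.5 and 44.9 FPKM in control libraries (log2 fold change 0.74, SE 0.06, edgeR adjusted p = 3.1e-06). Mcm5, a gene of the replicative helicase, had 68.6 and 67.3 FPKM in shRybp libraries, against 40.0 and 40.4 FPKM in control libraries (log2 fold change 0.72, SE 0.06, edgeR adjusted p = 2.8e-06). Among the genes that did not pass were Gins1 (log2 fold change 0.03) and Slbp (0.20). Between 22 and 27 of the 30 rose when 1 library was left out, and 0 fell.

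Of 27 Myc target genes tested, mostly of ribosome production, translation and nucleotide supply, 18 rose and 0 fell in edgeR, with a median of 0.29 (18 and 0 in DESeq2, 19 and 0 in limma, and 20 and 1 at an unadjusted p below 0.05 in edgeR). Some of these rises lost their call with 1 library left out. The log2 fold change of Tfrc ran from 0.13 without control replicate 2 to 0.32 without control replicate 1, and that of Nop58 from 0.20 to 0.43. The ribosome assembly gene Bop1 rose by 0.47 (SE 0.07, edgeR adjusted p = 3.6e-04) and the spermidine synthase gene Srm by 0.46 (SE 0.08, edgeR adjusted p = 5.3e-04). Hspd1, a mitochondrial chaperone gene, had 253 and 243 FPKM in shRybp libraries, against 222 and 202 FPKM in control libraries, and lay at the threshold without passing it (log2 fold change 0.19, edgeR adjusted p = 0.05). The 2 genes with a negative log2 fold change, Hspe1 (-0.20, edgeR adjusted p = 0.0521) and Ldha (-0.12), did not pass with all 4 libraries. With 1 library left out, 1 gene fell in each of 3 fits: Ldha without control replicate 1 (-0.33, edgeR adjusted p = 0.0049), where its value without control replicate 2 was 0.13, and Hspe1 without control replicate 2 (adjusted p = 0.016) or shRybp replicate 1 (adjusted p = 0.028). With robust estimation, the replicate block or a mean count of at least 100 as the filter, 1 gene fell as well.

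Of 11 genes in the Myc family and Max network, 2 rose and 4 fell, 18.2% and 36.4%, beside 16.3% and 16.7% of all genes tested. Mxd1, a repressor that competes with Myc for Max, had 1.75 and 2.00 FPKM in shRybp libraries, against 3.10 and 3.26 FPKM in control libraries (log2 fold change -0.79, SE 0.11, edgeR adjusted p = 1.5e-04). Mxi1, a repressor of the same family, had 5.68 and 6.26 FPKM in shRybp libraries, against 9.85 and 10.2 FPKM in control libraries (log2 fold change -0.78, SE 0.08, edgeR adjusted p = 2.1e-05). Mxd4 of that family also fell (-0.40), and the remaining fall was that of Mycl (-0.52), a paralogue of Myc. Mxd3, another repressor of the family, rose (0.35), as did Mlxip (0.30), while the antagonists Mnt (0.09, edgeR adjusted p = 0.52) and Mga (-0.03, edgeR adjusted p = 0.77) did not pass. These rises depended on single libraries: 1 was called without control replicate 2 or shRybp replicate 1 (Mlxip), and 1 without shRybp replicate 2 (Mxd3), and DESeq2 called neither, while the 4 falls were called with each library left out. Max itself had a log2 fold change of 0.16 (edgeR adjusted p = 0.16) and Mycn of 0.23 (edgeR adjusted p = 0.37).

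Among 8 CDK inhibitors 1 rose and 2 fell, 12.5% and 25.0%, near the 16.3% and 16.7% of all genes tested for a list of this size. Cdkn1c, which encodes p57, had 1.91 and 1.97 FPKM in shRybp libraries, against 3.81 and 3.96 FPKM in control libraries (log2 fold change -1.04, SE 0.17, edgeR adjusted p = 5.9e-04), Cdkn2b, an inhibitor of Cdk4 and Cdk6, fell by 0.59 (SE 0.17, edgeR adjusted p = 0.019), and the phosphatase gene Cdkn3 rose by 0.45 (edgeR adjusted p = 0.037), a call lost without control replicate 2 or either shRybp replicate. DESeq2 called 0 that rose and 1 that fell, Cdkn1c, so that the calls of Cdkn2b and Cdkn3 were lost there too. Without control replicate 2 the genes that rose were Cdkn1a and Cdkn2d in place of Cdkn3. The call of Cdkn2b was lost without control replicate 2 (edgeR adjusted p = 0.12) and without shRybp replicate 1 (edgeR adjusted p = 0.095). Cdkn1a, which encodes p21 and was the most abundant of those that did not pass, had 61.0 and 65.6 FPKM in shRybp libraries, against 52.1 and 61.3 FPKM in control libraries (log2 fold change 0.12, edgeR adjusted p = 0.23). Of 15 genes whose proteins bind or modify Rb or restrain the same step, 3 rose and 4 fell, 20.0% and 26.7%, again near the shares of all genes. Of these 15, 1 rose without control replicate 2, and 2 fell without control replicate 1, without shRybp replicate 2 or in limma. Hbp1, a repressor that binds Rb and p130, had 6.56 and 6.34 FPKM in shRybp libraries, against 9.67 and 9.97 FPKM in control libraries (log2 fold change -0.64, SE 0.08, edgeR adjusted p = 8.6e-05). Trp53, which encodes p53, rose by 0.51 (SE 0.07, edgeR adjusted p = 1.6e-04), and the chromatin remodeller gene Smarca4 did not pass (0.15, edgeR adjusted p = 0.074).

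Of 15 genes that govern the turnover of D cyclins, Myc and p27, 5 rose and 3 fell. These are 33.3% and 20.0%, beside 16.3% and 16.7% of all genes tested, so the share that fell was near that of all genes. The falls were fewer with any 1 library left out, and the rises were fewer without control replicate 1 or shRybp replicate 2. The falls numbered 0 in limma at either pseudocount and 1 in DESeq2, with library totals or with upper-quartile scaling. Skp2, the F-box protein that marks p27 for destruction, had 8.37 and 8.44 FPKM in shRybp libraries, against 6.24 and 6.37 FPKM in control libraries (log2 fold change 0.38, SE 0.08, edgeR adjusted p = 0.0021). Its cofactor gene Cks1b rose by 0.45 (SE 0.09, edgeR adjusted p = 0.0026). Of the genes known to direct D cyclin breakdown, Ambra1 rose (0.25), Gsk3b, the kinase that marks cyclin D1, fell (-0.18, edgeR adjusted p = 0.044), its paralogue Gsk3a rose (0.35, edgeR adjusted p = 0.004), and Fbxo4 (-0.24) and Fbxo31 (0.11) did not pass. Ambra1 and Gsk3b both lost their calls without control replicate 1 or shRybp replicate 2, Gsk3b also without control replicate 2, in DESeq2 and in limma. Gsk3a lost its call without shRybp replicate 2 (edgeR adjusted p = 0.067), and protein was not measured. Skp1a, the most abundant gene of the list that did not pass, had a log2 fold change of 0.01 (edgeR adjusted p = 0.92). In the MuvB complex, the assembly that joins p107 or p130 to silence cell cycle genes, the 5 core genes did not pass, Rbbp4 among them (0.07, edgeR adjusted p = 0.44). Mybl2, whose B-Myb protein takes the pocket protein's place on that core, rose by 0.43 (SE 0.08, edgeR adjusted p = 0.0016). It was the single call among the 7 genes of that list, 14.3%, beside 16.3% of all genes tested that rose. Some core genes, without a call with all 4 libraries, crossed the threshold with 1 library left out. Lin54 (0.18 with all 4 libraries) had a log2 fold change of 0.32 without control replicate 1. Lin52 (-0.24 with all 4 libraries) had -0.37 without control replicate 2 and -0.44 without shRybp replicate 1.

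The genes whose profile over the 4 libraries lay nearest to that of Ccnd1, by the distance between mean-centred log2 CPM (counts scaled by library size), were Dok1 (distance 0.031), Filip1 (0.042) and Fbn2 (0.046). Their FPKM levels were far lower than that of Ccnd1, with 2.92 and 3.02 FPKM for Dok1 in shRybp libraries, against 1.66 and 1.62 FPKM in control libraries. In all 119 genes lay within a distance of 0.2, so the order rests on 4 libraries and small differences.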

How the data were processed

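Per the labels' protocols, RNA was taken up in TRIzol and sequenced with standard Illumina library preparation. The authors deposited raw read counts per gene and library, not normalized, and FPKM values computed from the same counts (count over FPKM is a gene length times 1 library factor, within a relative difference of 3.6e-08). Reads were mapped to mm10, per the submitters' processing notes, and the aligner and counter were not given in the sources used here. All 13881 genes have at least 40 counts in all. Strands and overlaps came from GENCODE M21.

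Counts were tested with edgeR 4.0.16 in R 4.3.3 (TMM scaling, quasi-likelihood fit, two-sided, Benjamini-Hochberg over 12062 genes with a mean of at least 1 FPKM, threshold 0.05). Standard errors are the absolute log2 fold change over the square root of F. Replicates differed beyond counting noise (chi-square over its degrees of freedom 4.37 in shRybp and 5.18 in control). On counts simulated for shRybp against control over 12062 genes, the test found 52 of 67 genes made to differ by 1.5-fold, 66 of 67 by 2-fold and 66 of 66 by 3-fold, and called 14 unchanged genes. Alternatives were limma 3.58.1, DESeq2 1.42.0, other scalings and filters, the replicate number as a block and leaving out each library. The genes, lists and tests were chosen with earlier results of these data known. Named were all 10 genes and, from each list, the 2 called genes with the largest change and the most abundant gene not called (1 gene is not reported here); others were named after their values were seen, to spell out small counts.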

Additional observations from a re-analysis of the deposited data

How the results depend on the processing

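Ccnd1, Cdk2, Rbl1 and Rb1 kept their direction and their call under all 14 alternatives, with log2 fold changes of 0.80 to 0.85, 0.34 to 0.41, 0.46 to 0.57 and -0.39 to -0.29. Cdk4 (0.08 to 0.14) stayed without a call in all 14. Leaving out each library gave between 3 and 4 of the 10 genes that rose and 1 that fell, between 1296 and 1640 genes that rose among all tested, 8 to 14 pathway genes that fell and a Ccnd1 share of 73.0% to 74.1% in shRybp. With 1 library left out, directions turned where the change was near 0: Ccnd2 ranged from -0.02 to 0.04 (negative without control replicate 2, at -0.0003, or shRybp replicate 1), Cdk6 from -0.23 (without shRybp replicate 1) to 0.25, and Skp1a from -0.07 to 0.09 (negative without control replicate 2 or shRybp replicate 1, the last at -0.04). Of the pathway genes 9 fell with DESeq2 and 8 with limma at either pseudocount (1 or 0.1), against 14 in edgeR. The cause was not tested. The labels do not say that replicate numbers pair the libraries, and the within-group deviations of the same number correlated by 0.103 over 12062 genes; with the replicate block 2676 genes rose, 2652 fell, and 2 of the 10 genes fell, Rbl2 (edgeR adjusted p = 0.031) with Rb1. Library totals without TMM moved the median of all genes to 0.039.

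With 2 libraries a group, changes of 1.5-fold were found less often than larger ones in the simulation, and Rbl2, Cdk4 and Myc lie well below that size. Counts behind Cdk6 were 613 and 502 in shRybp libraries, against 616 and 557 in control libraries.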
